A study of Sus scrofa with 12 samples.

Results

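The platelet-derived growth factor (PDGF) family was followed in porcine cells during endothelial induction and in an endothelial cell line. The 4 ligand genes PDGFA, PDGFB, PDGFC and PDGFD and the 2 receptor genes PDGFRA and PDGFRB were found by gene symbol, so 6 of the 19681 genes in each file were described. RNA sequencing values of 12 libraries were used, with 3 biological replicates (A, B and C) in each of 4 groups. IEC2, IEC4 and IEC12 were cells derived from porcine iPS cells by endothelial induction for 2, 4 and 12 days, and AOC was a porcine endothelial cell line whose labels give its time of differentiation as final. All induced groups received the Wnt activator CHIR99021 at the start, IEC4 also BMP4, FGF2 and VEGF, and IEC12 then grew in the endothelial medium EGM-2 with VEGF. IEC12 cells were not sorted, and the starting iPS cells and the sorted CD31-positive cells are not analysed here. AOC cells were not induced, so cell origin, culture and stage cannot be told apart when AOC is compared with the induced groups. How many iPS clones or passages stand behind the replicates is not given in the sources used here, and p-values measure only the spread between these replicates.

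PDGFs are secreted dimers that bind receptor tyrosine kinases, pair the receptors and start Ras, PI3-kinase and phospholipase C signalling. PDGF-A and PDGF-B are cut to their active form inside the cell by furin-type convertases. PDGF-C and PDGF-D leave the cell with a CUB domain that extracellular proteases must remove, tissue plasminogen activator for PDGF-C and urokinase or matriptase for PDGF-D. PDGFRα binds the A, B and C chains, and PDGFRβ binds the B and D chains. In vessels, endothelial PDGF-B draws in pericytes that carry PDGFRβ, while PDGFRα is found on mesodermal and mesenchymal progenitors.

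The members are 1 family, and PDGFD was selected on its FPKM at day 4, so its values are given below with no test in any comparison. For the other members, differences were tested with limma on log2(FPKM + 1), where FPKM is the number of fragments scaled to transcript length and to the mapped fragments of the library, and all log2 differences below are on that scale, which understates changes of low values. Genes needed at least 1 FPKM in at least 3 libraries of the fit, and a gene was called at a Benjamini-Hochberg adjusted p-value under 0.05 over all tested genes. The stages were compared with each other in a fit of the 9 induced libraries (10542 genes), and AOC with each stage in a fit of all 12 (11053 genes). Comparisons that name the same group share its libraries. PDGFB, PDGFC, PDGFD and PDGFRA passed the filter in both fits, PDGFA passed only in the fit with AOC and only through AOC, and PDGFRB passed in neither.

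The number of fragments behind each value could be read from the files, because all 14609 genes above 0 in at least 6 libraries had FPKM values in ratios of whole numbers, within 0.05 fragments. The smallest whole numbers in these ratios summed to between 17627718 fragments in IEC12 replicate A and 32457569 in IEC4 replicate A. The mean correlation of a library with its own group was 0.961 (IEC12 replicate A) to 0.990 (AOC replicate B). Of 12 listed endothelial markers 10 were found in the files, and VWF was not among them. In AOC these 10 summed to 349.4 to 470 FPKM. They summed to 3.268 to 5.703 FPKM in IEC2, 1.74 to 2.155 FPKM in IEC4 and 0.4149 to 0.5953 FPKM in IEC12, and CDH5, the endothelial cadherin, was listed at 0 in all 9 induced libraries. KDR, the VEGF receptor that early mesoderm also carries, was the exception, at 2.418 to 3.99 FPKM in IEC2 against 1.31 to 1.461 FPKM in AOC, and at most 0.3017 FPKM in IEC4 and IEC12. The other 9 markers found were under 1 FPKM in every induced library, so apart from KDR in IEC2 the label "induced endothelial cells" was not matched by these markers. In IEC4, 5 epithelial markers summed to 518.5 to 1434 FPKM, against 108.1 to 143.7 FPKM in IEC2 and 41.78 to 86.59 FPKM in IEC12, and 8 amnion and trophoblast markers to 87.55 to 252.7 FPKM, against 9.754 to 10.7 FPKM and 13.34 to 24.81 FPKM. Both sums were highest in IEC4 replicate C, which also stood apart in the values of PDGFB below. The amnion and trophoblast list did not move together. GABRP and KRT7 had its highest group means (114 and 32.6 FPKM). With GATA3 and VTCN1 they were called higher in IEC4 than in IEC2. ISL1 and TFAP2A were lower (log2 differences -1.62 and -0.80, limma adjusted p = 0.000509 and 0.0250). KRT7 and VTCN1 passed the filter of the induced libraries only with IEC4, so a difference was built into their selection. KRT7 had 15 to 44 fragments in IEC2 and 1619 to 4896 in IEC4, and VTCN1 had at most 4 and 29 to 100. GATA3 was higher in IEC12 than in IEC4 (2.13, adjusted p = 0.000415). The 7 early mesoderm markers found reached a sum of 8.142 to 11.86 FPKM in IEC4 and 0.251 to 4.068 FPKM elsewhere, with MIXL1 and EOMES at 0 throughout. HAND1 had the highest group mean of these, 7.652 FPKM, on 756 to 1035 fragments in IEC4 and at most 118 in other libraries. MESP2 was higher in AOC than in IEC4 (log2 difference 0.80, limma adjusted p = 0.00121). Sums over 7 fibroblast and mesenchyme markers were 67.12 to 130 FPKM in the induced groups and 20.04 to 25.46 FPKM in AOC, and those over 11 mural markers were 4.671 to 33.39 FPKM in all 12 libraries. COL3A1 and PRRX1 had the highest group means of the fibroblast list (93.58 and 25.33 FPKM). Its member COL1A2 went the other way, with 1710 to 1963 fragments in AOC and at most 104 in any induced library. Of 7 listed pluripotent markers only 3 were found, LIN28A, NANOG and ESRRB, so POU5F1 and SOX2 could not be read. These 3 summed to 3.353 to 6.386 FPKM in IEC4 and at most 1.527 FPKM in the other groups. Leukocyte and blood markers (5 found) summed to at most 9.667 FPKM, and endoderm markers (5 found) to 26.45 to 40.96 FPKM in AOC and at most 5.726 FPKM in the induced groups. APOA1 had the highest group mean of the endoderm markers, 29.84 FPKM. GATA6 was not called between AOC and any stage (limma adjusted p = 0.0502 to 0.910).

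PDGFC (ENSSSCG00000024960, chr8:45579065-45808789 of Sscrofa11.1) encodes the CUB-domain ligand of PDGFRα and had the highest mean of the 4 ligands in each induced group. Its FPKM was 8.203, 8.17 and 11.28 in the replicates A, B and C of IEC2, 15.08, 12.72 and 15.92 in IEC4, and 7.845, 6.137 and 6.546 in IEC12. All IEC4 libraries lay above all IEC2 and IEC12 libraries. Mean FPKM was 9.217 ± 1.785 (SD, n = 3) at day 2, 14.57 ± 1.66 at day 4 and 6.843 ± 0.8919 at day 12. From IEC2 to IEC4 PDGFC rose by 0.62 (SE 0.18, limma adjusted p = 0.0219), where the median of all tested genes was 0.20. With libraries rescaled by the median of ratios, which brought that median to -0.03, the difference was 0.37 and was not called (adjusted p = 0.172). It was also not called without IEC2 replicate A or B or IEC4 replicate A or C (adjusted p = 0.0652 to 0.0759). From IEC4 to IEC12 PDGFC fell by 0.99 (SE 0.18, adjusted p = 0.00193), a call that every alternative with the same threshold kept. IEC12 and IEC2 differed by -0.37 (95% interval -0.77 to 0.02, adjusted p = 0.115). In AOC the FPKM was 4.611, 7.578 and 3.718, with replicate B inside the range of IEC12. PDGFC was lower in AOC than in IEC4 by 1.35 on the log2 scale (log2 difference -1.35, SE 0.22, adjusted p = 0.000175). It was also lower than in IEC2 (log2 difference -0.73, SE 0.22, adjusted p = 0.0111), but not with median-of-ratios scaling (adjusted p = 0.0542) or without AOC replicate C (0.0550) or IEC2 replicate C (0.0508). AOC and IEC12 differed by -0.36 (95% interval -0.83 to 0.12, adjusted p = 0.179, and 0.0229 without AOC replicate B).

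PDGFD (ENSSSCG00000014994, chr9:34388636-34621227) encodes the CUB-domain ligand of PDGFRβ and had the widest span of levels among the 6 genes. Its FPKM was 0.05407, 0.0164 and 0.06659 in IEC2, which rest on 6, 2 and 8 fragments. In IEC4 it was 4.94, 5.821 and 9.449 FPKM, on 684 to 1080 fragments, and in IEC12 1.197, 1.592 and 1.313 FPKM. AOC had 14.06, 23.67 and 13.15 FPKM, so day 4 was the peak among the induced stages but lay below the endothelial line. The 4 groups did not overlap, in the order IEC2, IEC12, IEC4 and AOC. The mean FPKM of IEC4 was 147.5 times that of IEC2, a ratio set by the few fragments of IEC2, and IEC12 had 0.203 times the mean of IEC4. The mean in AOC, 16.96 ± 5.83 (SD, n = 3), was 2.518 times that in IEC4, 6.737 ± 2.39. These values describe the pattern for which the gene was selected. In a bulk library, a lower level cannot be told apart as fewer cells that express a gene or less RNA in each such cell.

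PDGFB (ENSSSCG00000033327), the endothelial ligand that binds both receptors, varied most between replicates. Its FPKM was 2.661, 0.8393 and 2.291 in IEC2, 2.387, 5.141 and 17.78 in IEC4, and 0.5357, 1.123 and 1.359 in IEC12. In AOC it was 7.759, 6.968 and 6.65. The 3 IEC4 libraries spanned the range from below IEC2 replicate A to above every AOC library. IEC4 replicate C, with 1211 PDGFB fragments, also held the highest epithelial and amnion marker sums of the 12 libraries, and the part of these in its PDGFB level was not tested. IEC4 and IEC2 differed by 1.38 (95% interval 0.17 to 2.59, adjusted p = 0.0707), and the difference was called with the replicate letter as a block (adjusted p = 0.0481) and without IEC4 replicate A (0.0188). PDGFB fell by 1.89 from IEC4 to IEC12 (SE 0.54, adjusted p = 0.0186, and 0.0501 with no filter on low values). Without IEC4 replicate C this decrease was -1.21 and still called (adjusted p = 0.0339). IEC12 and IEC2 differed by -0.51 (95% interval -1.72 to 0.70, adjusted p = 0.474). PDGFB was higher in AOC than in IEC12 by 2.04 (SE 0.49, adjusted p = 0.00372) and than in IEC2 by 1.53 (SE 0.49, adjusted p = 0.0169, and 0.0729 without IEC2 replicate B). AOC and IEC4 did not differ detectably, with a difference of 0.15 (95% interval -0.93 to 1.23, adjusted p = 0.798). Its sign depended on 1 library and on the scaling, at -0.40 without IEC4 replicate A, 0.83 without IEC4 replicate C (adjusted p = 0.0474) and -0.070 with equal totals, and the mean FPKM was lower in AOC (7.126 ± 0.5712) than in IEC4 (8.436 ± 8.208).

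PDGFA (ENSSSCG00000007541, chr3:296399-322967), the ligand that binds only PDGFRα, was detected mainly in the endothelial line. Its FPKM was 7.875, 6.696 and 6.17 in AOC and stayed under 1 in every induced library. It was 0.7398, 0.5259 and 0.4057 in IEC2, 0.3273, 0.2817 and 0.7931 in IEC4, and 0.1024, 0.1447 and 0.1093 in IEC12. All IEC12 values lay below all IEC2 and IEC4 values, on 9 to 22 fragments a library against 43 to 106. Mean FPKM in AOC was 12.41 times that in IEC2, 14.79 times that in IEC4 and 58.2 times that in IEC12. PDGFA entered the fit only through its AOC libraries, so a difference was built into its selection. With no filter on low values, where every gene entered, the log2 differences were 2.35 (limma adjusted p = 1.17e-06), 2.44 (1.09e-06) and 2.82 (4.05e-07). In the fit of the induced libraries it was under the filter, and with no filter IEC12 and IEC2 differed by -0.47 (adjusted p = 0.0401), IEC12 and IEC4 by -0.37 (0.0813) and IEC4 and IEC2 by -0.10 (0.671).

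**Figure D1:**
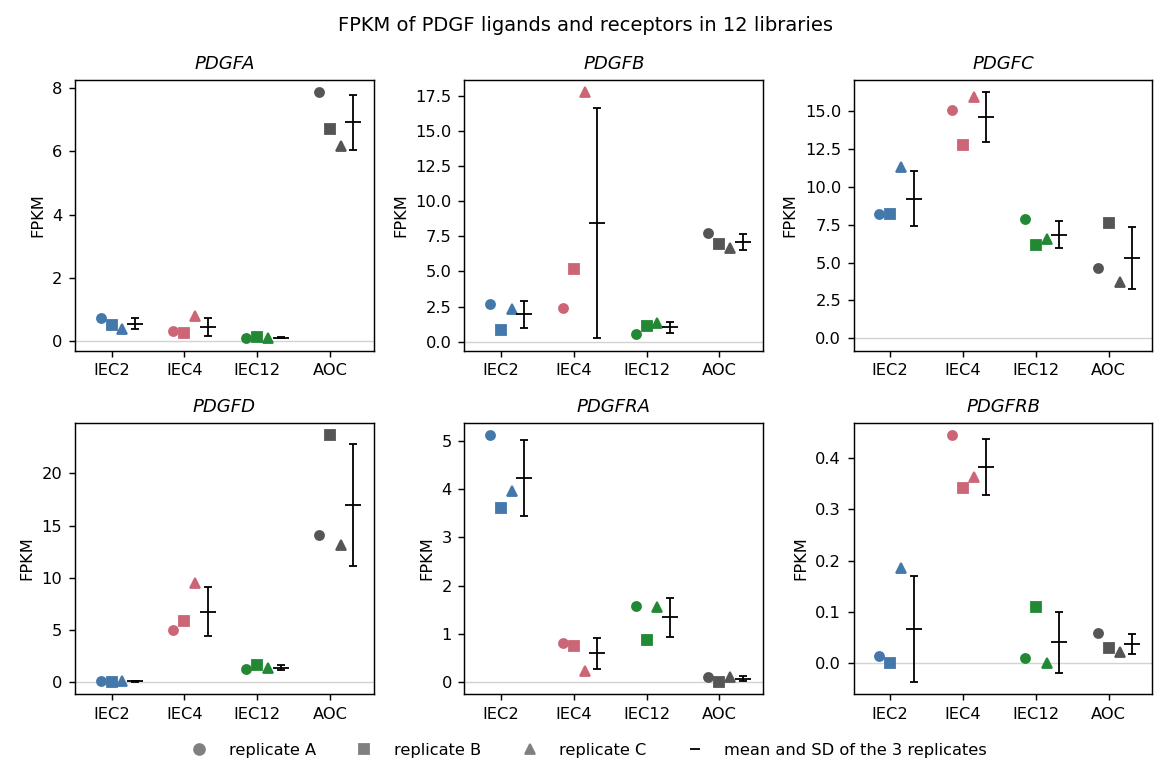
FPKM (y axis, a linear scale that differs between panels) of each PDGF gene in the 3 replicates of IEC2, IEC4, IEC12 and AOC (x axis), with the mean and SD beside the points. PDGFA and PDGFD are highest in AOC, PDGFC and PDGFRB in IEC4 and PDGFRA in IEC2, and 1 IEC4 library reaches 17.78 FPKM of PDGFB.

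PDGFRA (ENSSSCG00000008841, chr8:40966568-41021440) encodes the receptor of the A, B and C chains and was highest at day 2. Its FPKM was 5.128, 3.617 and 3.976 in IEC2, 0.8012, 0.7398 and 0.217 in IEC4, and 1.58, 0.8731 and 1.557 in IEC12. In AOC it was 0.09066, 0 and 0.1004 FPKM, on 7, 0 and 8 fragments, and the library listed at 0 allows up to 0.0380 FPKM, the value of 3 fragments. This limit and the fragment numbers cover counting error only. All 4 groups were separate, in the order AOC, IEC4, IEC12 and IEC2. PDGFRA fell from IEC2 to IEC4 by 1.74 (SE 0.22, adjusted p = 0.000341) and was lower in IEC12 than in IEC2 by 1.17 on the log2 scale (log2 difference -1.17, SE 0.22, adjusted p = 0.00251). Under the filter PDGFRA passed only with its IEC2 libraries, and with no filter both differences were still called (adjusted p = 0.00170 and 0.00830). IEC12 exceeded IEC4 in every library, but the difference of 0.57 was not called (95% interval 0.06 to 1.07, adjusted p = 0.0649, and 0.0486 with median-of-ratios scaling). In AOC it was lower than in IEC2 (log2 difference -2.29, SE 0.19, adjusted p = 8.71e-07, and 6.16e-06 with no filter) and than in IEC12 (-1.12, SE 0.19, adjusted p = 0.000374). The difference of AOC from IEC4 was -0.56 (SE 0.19, adjusted p = 0.0233). This call was lost with median-of-ratios scaling (adjusted p = 0.0772) and without any AOC replicate or IEC4 replicate A or B (0.0507 to 0.0841), and limma-voom on the recovered fragments gave -3.70 (adjusted p = 0.00483). The gene for the stem cell factor receptor KIT is the next protein-coding gene on the chromosome, at chr8:41402334-41492306, with 0 others between. KIT had 49.18 to 68.38 FPKM in IEC2, 51.4 to 89.83 at day 4 and 39.81 to 68.39 at day 12, and none of its differences between stages was called (adjusted p = 0.192 to 0.758).

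PDGFRB (ENSSSCG00000022741, chr2:151155753-151192818), the receptor that pericytes use, stayed under 0.5 FPKM in every library. Its FPKM was 0.4454, 0.3415 and 0.3641 in IEC4, on 83, 60 and 56 fragments. It was 0.01339, 0 and 0.1856 in IEC2, 0.009884, 0.1086 and 0 in IEC12, and 0.05899, 0.02884 and 0.02144 in AOC. Every IEC4 library was above every other library, while IEC2, IEC12 and AOC overlapped at 0 to 30 fragments. The libraries listed at 0 allow up to 0.0183 FPKM in IEC2 replicate B and 0.0190 FPKM in IEC12 replicate C. PDGFRB was under the filter and had no main test. With no filter, limma gave a log2 difference of 0.38 for IEC4 against IEC2 (adjusted p = 0.00970), -0.41 for IEC12 against IEC4 (0.00637) and -0.42 for AOC against IEC4 (0.000505). The other 3 differences were -0.037 to -0.0029 (adjusted p = 0.762 to 1). Markers of mural cells were compared beside it. The 11 mural and smooth muscle markers summed to 15.09 to 33.39 FPKM in IEC4, 4.671 to 5.201 in IEC2, 7.993 to 9.871 in IEC12 and 9.484 to 17.25 in AOC. Within the list the genes did not move together. Among the induced groups RGS5, ACTA2 and DES were highest in IEC4, at 24.56, 7.603 and 3.93 FPKM for RGS5, while KCNJ8 was lower in IEC4 (0.7742 to 1.142 FPKM) than in IEC12 (2.876 to 3.626), MCAM overlapped between stages (2.725 to 5.135 FPKM in IEC4), and TAGLN was at most 0.5088 FPKM. CSPG4, the pericyte proteoglycan NG2, was at most 0.02284 FPKM in the 12 libraries. The part of mural-type cells in the PDGFRB level was not tested.

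**Figure D2:**
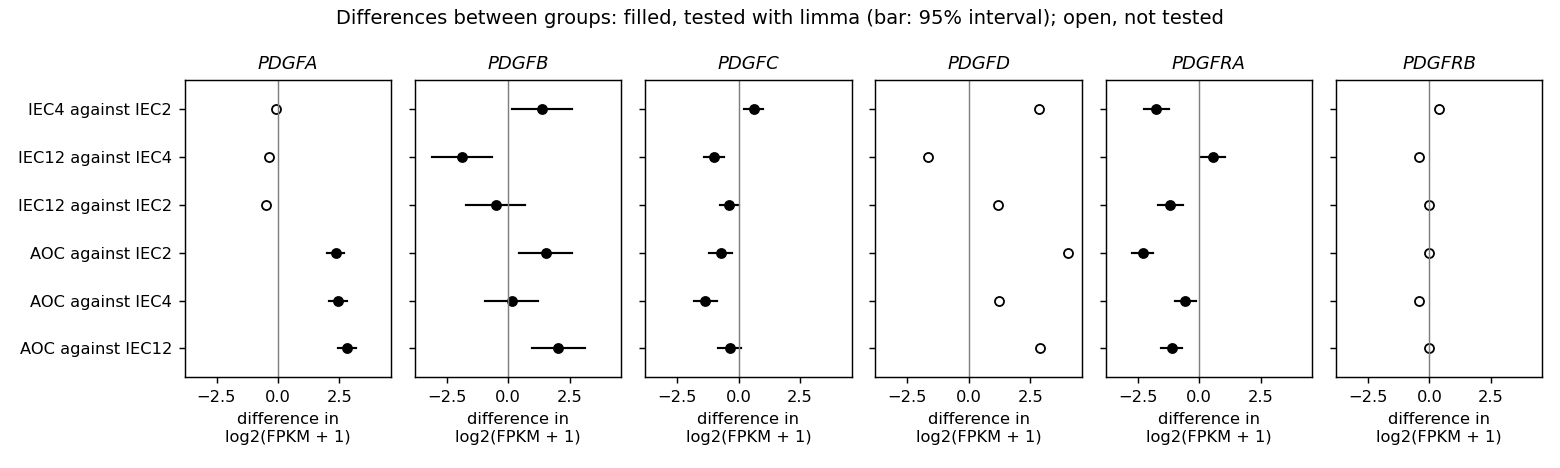
Differences in log2(FPKM + 1) (x axis) of the 6 PDGF genes for the 6 comparisons of groups (y axis), as the first group minus the second. Filled points carry limma 95% intervals, not adjusted for the number of genes, and open points were not tested. The intervals of PDGFB for IEC4 against IEC2 and PDGFRA for IEC12 against IEC4 exclude 0, but neither was called. PDGFA passed the filter only through AOC and PDGFRA only with IEC2. The intervals of PDGFRA lie below 0 in 5 of 6 comparisons, and those of PDGFC lie below 0 for IEC12 against IEC4 and for AOC against IEC2 and IEC4.

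FPKM is a level per length, so the ligands can be set side by side within a library. Together the 4 ligands had 11.75 ± 2.246 FPKM (SD, n = 3) at day 2, 30.21 ± 11.91 at day 4, 9.334 ± 0.3423 at day 12 and 36.3 ± 7.807 in AOC. PDGFC made up 78.74 ± 7.71% of the sum in IEC2, 51.88 ± 15.09% in IEC4, 73.15 ± 6.906% in IEC12 and 14.28 ± 2.292% in AOC. It was the largest share in 8 of the 9 induced libraries, and in IEC4 replicate C PDGFB was larger, at 40.46% against 36.23%. The share of PDGFD was 0.370 ± 0.172% at day 2, 22.51 ± 1.55% at day 4 and 14.71 ± 2.72% at day 12, as a description without a test. In AOC it was the largest share, 45.99 ± 6.042%, followed by PDGFB at 20.18 ± 4.041% and PDGFA at 19.55 ± 4.163%, which overlapped. The spread of the PDGFC share in IEC4 came with that of PDGFB, whose share was 10.5, 21.46 and 40.46% in the 3 libraries, while the PDGFD share stayed between 21.5 and 24.29%. The 2 receptors summed to 4.307 ± 0.7724 FPKM in IEC2, 0.970 ± 0.347 in IEC4, 1.376 ± 0.3421 in IEC12 and 0.1001 ± 0.0633 in AOC. PDGFRA made up at least 95.54% of that sum in every IEC2 library, 37.34 to 68.42% in IEC4 and 88.94 to 100% in IEC12. The receptor sums of IEC4 and IEC12 overlapped.

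**Figure D3:**
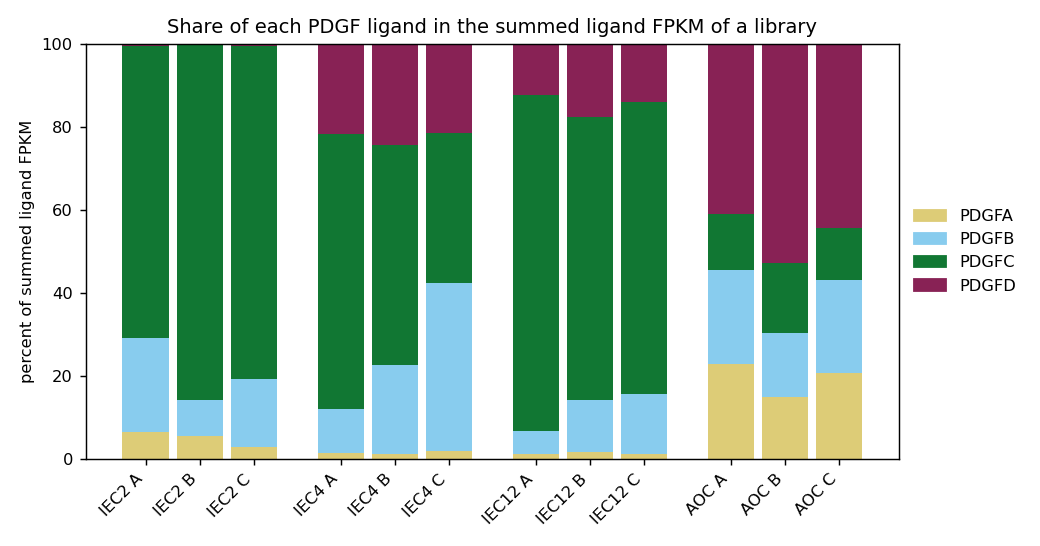
Percent of the summed ligand FPKM (y axis) taken by each of the 4 PDGF ligands in each of the 12 libraries (x axis). PDGFC takes 36.23 to 85.54% in the induced libraries and PDGFD 40.99 to 52.71% in AOC.

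The members' calls were set against those over all tested genes, because large parts of the transcriptome differed between groups. Between IEC4 and IEC2, 2 of 3 tested members were called, where 37.3% of all tested genes were called. PDGFC was among the 24.8% that were higher and PDGFRA among the 12.5% that were lower. Between IEC12 and IEC4, 2 of 3 were called, against 44.2% of all genes. Both PDGFB and PDGFC were lower, as were 26.9% of all genes, while 17.3% were higher. Between IEC12 and IEC2 only PDGFRA, 1 of 3, was called, and it was lower, against 43.6% of all genes (24.2% higher and 19.3% lower). PDGFA, which entered through AOC alone, is not counted for AOC. Of the other 3, all were called against IEC2, where 63.8% of all genes were called (26.7% higher and 37.1% lower in AOC). Against IEC4 it was 2 of 3, without PDGFB, beside 69.1% of all genes (22.1% higher and 47.0% lower). Against IEC12 it was also 2 of 3, without PDGFC, beside 58.5% of all genes (22.4% higher and 36.2% lower). PDGFRA entered the fits through IEC2, the group where it was high, so these counts are no support for a change of the family. For iPS cells against AOC the study had set stricter limits, an absolute log2 fold change above 3 with p and adjusted p under 0.001. These limits, applied to the limma fit, called 0 of the tested members in the 6 comparisons. Of all tested genes they called 1.18% for IEC4 against IEC2, 0.939% for IEC12 against IEC4, 1.22% for IEC12 against IEC2, and 5.47%, 5.17% and 4.41% for AOC against IEC2, IEC4 and IEC12. For PDGFRA the 0 was set by the scale, since a gene at 5.128 FPKM or less cannot reach 3 in log2(FPKM + 1). PDGFA, at 6.17 to 7.875 FPKM in AOC, was close to the same bound. Over the alternatives PDGFRA reached -6.70 for AOC against IEC2 and PDGFA 5.80 for AOC against IEC12.

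Genes that activate, bind or hold PDGF were examined next, from a list of 13 of which 12 were found and 8 tested. FURIN and THBS1 passed the filter of the induced libraries only with IEC4, and NRP1 only with IEC12, so the list is counted first with no filter, over all 12 genes found. From IEC2 to IEC4 5 were called higher and 0 lower, where 15.4% of all genes were higher and 6.945% lower. From IEC4 to IEC12 it was 1 higher and 4 lower (all genes 10.04% and 16.11%), and between IEC12 and IEC2 2 higher and 1 lower (14.04% and 10.28%). AOC had 3 higher and 1 lower than IEC2 (17.99% and 23.14%), 1 and 5 against IEC4 (15.22% and 32.56%) and 3 and 3 against IEC12 (15.18% and 23.01%). Over the 8 genes that passed the filter the counts were 6 higher and 0 lower, 1 and 4, 2 and 2, 3 and 1, 1 and 3, and 3 and 3 in the same order. Without IEC4 replicate C, 4 of 7 were higher in IEC4 than in IEC2. Without IEC12 replicate A, 1 of 8 was lower in IEC12 than in IEC2.

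PLAU, urokinase, which releases active PDGF-D, had 3.402 to 4.009 FPKM in IEC2, 40.56, 33.25 and 621.3 FPKM in IEC4, and 0.04639 to 0.6381 FPKM in IEC12. It rose by 4.35 to IEC4 (SE 0.89, adjusted p = 0.00419) and fell by 6.22 to IEC12 (adjusted p = 0.000617). In AOC it had 72.67 to 87.02 FPKM, above the first 2 IEC4 libraries and below replicate C. PLAU and PDGFD were both highest in IEC4 and AOC, but PDGFD was selected on its day 4 level, so no link is read from this. The PLAU values of IEC12 lay below those of IEC2, but the difference was not called (log2 difference -1.87, SE 0.89, limma adjusted p = 0.115). PDGFD had 1.197 to 1.592 FPKM in IEC12 and at most 0.06659 FPKM in IEC2, and a relation between the 2 genes was not tested. ST14, matriptase, the other PDGF-D protease, had 0.8094, 0.3804 and 4.513 FPKM in IEC4, at most 0.1411 FPKM in IEC2 and IEC12, and was listed at 0 in the 3 AOC libraries, and it was not tested. PLAT, tissue plasminogen activator, which releases active PDGF-C, was present in all groups at 6.728 to 42.61 FPKM. It was called in 1 of 6 comparisons, IEC12 below IEC2 (log2 difference -1.12, SE 0.39, adjusted p = 0.0419), but not with no filter (0.0957), and median-of-ratios scaling called it in 3 more (0.0181 to 0.0386).

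Among the convertases that cut PDGF-A and PDGF-B, PCSK6 changed most. It had 0.00903, 0.4519 and 0.3003 FPKM in IEC2, 10.32 to 12.29 in IEC4, 18.09 to 22.6 in IEC12 and 3.248 to 4.083 in AOC. The 4 groups were separate, and PCSK6 rose by 3.33 from IEC2 to IEC4 (SE 0.19, adjusted p = 3.63e-06) and by 0.81 to IEC12 (SE 0.19, adjusted p = 0.00726). FURIN stayed at 0.06742 to 1.378 FPKM and reached 1 FPKM only in IEC4, which brought it past the filter. With no filter IEC4 was above IEC2 by 0.64 (limma adjusted p = 0.00753), and IEC12 differed from IEC4 by -0.75 (0.00372). PCSK7 rose from IEC2 to IEC4 by 0.90 (adjusted p = 0.0283, and 0.0592 with no filter), from 1.165 to 2.157 FPKM to 3.127 to 4.65 FPKM. PCSK5 was at most 0.4232 FPKM in any library and was not tested.

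SPARC, a matrix protein that binds PDGF-B, had 324.9 to 416.9 FPKM in IEC2, 646 to 1160 in IEC4, 53.58 to 116.8 in IEC12 and 316.4 to 589.9 in AOC. It rose by 1.16 to IEC4 (SE 0.30, adjusted p = 0.0143) and fell by 3.21 to IEC12 (SE 0.30, adjusted p = 7.29e-05). THBS1, thrombospondin 1, had 0.5051 to 1.309 FPKM in IEC2, 7.452, 6.668 and 70.15 in IEC4, at most 0.1938 in IEC12 and 228.6 to 319.8 in AOC. It passed the filter of the induced libraries only with IEC4. With no filter IEC4 was above IEC2 by 3.19 (limma adjusted p = 0.0216), and IEC12 differed from IEC4 by -3.86 (0.00934). NRP1, neuropilin 1, a co-receptor, stayed at 0.3168 to 1.535 FPKM and was called in 1 of 6 comparisons, AOC below IEC12 (log2 difference -0.57, adjusted p = 0.0441 with no filter, 0.0539 with median-of-ratios scaling). PLAU, THBS1, ST14 and PDGFB each had their highest IEC4 value in replicate C.

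**Figure D4:**
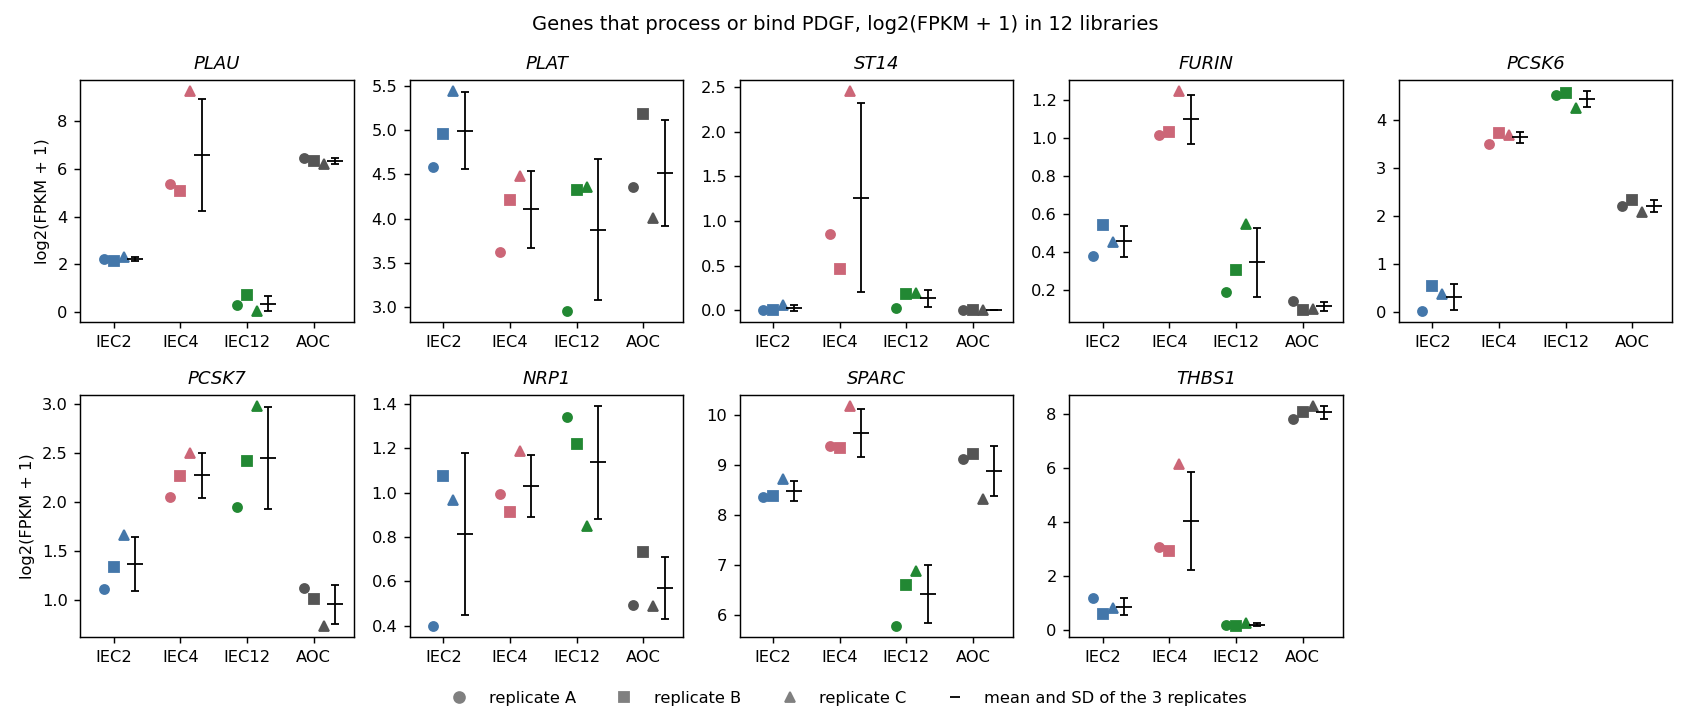
The level as log2(FPKM + 1) (y axis, its range differs between panels) of 9 genes that process, bind or hold PDGF in the 3 replicates of each group (x axis), with mean and SD. PLAU and THBS1 are high in IEC4 and AOC, PCSK6 is highest in IEC12, and replicate C leads the IEC4 values of PLAU, ST14 and THBS1.

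Proteins that bind or relay from the activated receptors were counted likewise. Of 33 listed genes 30 were tested. From IEC2 to IEC4 3 rose and 1 fell, which is 4 of 30 called beside 37.3% of all genes. From IEC4 to IEC12 4 rose and 6 fell, beside 17.3% and 26.9% of all genes, and with equal totals 0 rose and 6 fell. IEC12 had 5 higher and 6 lower than IEC2, beside 24.2% and 19.3%. In AOC 5, 6 and 6 were higher and 12, 15 and 9 lower than in IEC2, IEC4 and IEC12, where all genes too were more often lower (37.1% against 26.7%, 47.0% against 22.1% and 36.2% against 22.4%). The excess of lower calls depended on the scaling, since median-of-ratios scaling gave 9 higher and 9 lower, 11 and 8, and 9 and 8. The list's medians were between -0.38 and 0.07, beside -0.45 to 0.20 for all genes. The adaptor CRK had the highest level of the list, with 1001 to 1278 FPKM in IEC2, 787.3 to 925.7 in IEC4, 1126 to 1301 in IEC12 and 644.6 to 735.6 in AOC. The adaptor NCK1 had 32.18 to 38.16 FPKM in IEC2 and 63.63 to 73.18 FPKM in IEC12. It rose by 0.63 to IEC4 (adjusted p = 0.00293, and 0.112 with median-of-ratios scaling) and by 0.33 to IEC12 (adjusted p = 0.0455, and 0.465 with equal totals). The GTPase NRAS had 67.41 to 83.14 FPKM in IEC2 and IEC4 and rose by 0.49 to IEC12 (adjusted p = 0.0130, and 0.136 with equal totals). GAB1, a docking protein, fell by 1.57 from IEC4 to IEC12 (SE 0.29, adjusted p = 0.00216), from 10.02 to 15.46 FPKM to 2.052 to 5.084 FPKM. PIK3R2, a regulatory subunit of PI3-kinase, fell by 1.52 in the same step (SE 0.26, adjusted p = 0.00159) and had at most 0.1563 FPKM in AOC.

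Phosphatases, ubiquitin ligases and feedback inhibitors of receptor kinases formed the next list, with all 13 found of the 14 listed genes tested. From IEC2 to IEC4 0 rose and 2 fell (median -0.02, all genes 0.20), beside 24.8% and 12.5% of all genes. From IEC4 to IEC12 1 rose and 7 fell (median -0.46, all genes -0.15), beside 17.3% and 26.9%. Between IEC12 and IEC2 1 was higher and 5 lower (median -0.13, all genes 0.03), beside 24.2% and 19.3%. In AOC 1, 1 and 2 were higher and 10, 9 and 7 lower than in IEC2, IEC4 and IEC12, with medians of -1.20, -1.18 and -0.70. All genes too were more often lower in AOC, at 37.1%, 47.0% and 36.2%, with medians of -0.20, -0.45 and -0.21. DUSP5, among the 7 that fell to IEC12, passed the filter of the induced libraries only with IEC2 and IEC4. With no filter 1 rose and 2 fell from IEC2 to IEC4 (all genes 15.4% and 6.945%). From IEC4 to IEC12 0 rose and 7 fell (10.04% and 16.11%), and 1 was higher and 5 lower in IEC12 than in IEC2 (14.04% and 10.28%). With median-of-ratios scaling 5 fell from IEC4 to IEC12, and without IEC4 replicate C 5 of 12. DUSP6, the ERK phosphatase, had 51.11 to 63.69 FPKM in IEC2, 41.61 to 44.55 at day 4 and 8.125 to 17.52 at day 12, a decrease by 1.74 in the last step (log2 difference -1.74, SE 0.23, adjusted p = 0.000402). DUSP4 fell in each step, by 0.79 to IEC4 (SE 0.16, adjusted p = 0.00385) and by 1.52 to IEC12 (SE 0.16, adjusted p = 0.000120), from 44.26 to 60.17 FPKM in IEC2 to 8.126 to 10.94 FPKM in IEC12. SPRY4, a Ras pathway inhibitor, had 8.055 to 12.57 FPKM in IEC2 and IEC4 and fell by 1.74 to IEC12 (SE 0.27, adjusted p = 0.001003), and AOC had at most 0.2662 FPKM. CBLB, a ubiquitin ligase of receptors, stayed at 19.6 to 38.05 FPKM in the induced groups with no call between stages (adjusted p = 0.0543 to 0.401), and AOC had 7.587 to 8.814 FPKM.

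Immediate early genes, which growth factor receptors switch on, were taken from a list of 17, of which 16 were found and 13 tested. From IEC2 to IEC4 7 fell and 2, MYC and EGR2, rose, beside 12.5% and 24.8% of all genes. From IEC4 to IEC12 11 fell and 0 rose, beside 26.9% and 17.3%, and 10 were lower and 0 higher in IEC12 than in IEC2, beside 19.3% and 24.2%. The medians were -0.99, -1.18 and -2.16, against 0.20, -0.15 and 0.03 for all genes. MYC and SRF passed the filter of the induced libraries only with IEC4, and IER3 only with IEC2. With no filter 15 genes entered, of which 6 fell and 2 rose in the first step, 10 fell and 0 rose in the second, and 10 were lower and 0 higher in IEC12 than in IEC2. EGR2, named after its values were seen, had 5.207 to 9.634 FPKM in IEC2, 29.79 to 41.76 at day 4 and 0.6812 to 3.392 at day 12. Without IEC4 replicate C, 8 of 12 fell from IEC4 to IEC12, and 9 of 13 fell without IEC12 replicate A. AOC had 3 higher and 7 lower than IEC2 (all genes 26.7% and 37.1%), 5 and 5 against IEC4 (22.1% and 47.0%), and 8 and 2 against IEC12 (22.4% and 36.2%). SRF, lower in AOC than in IEC2 and IEC4, passed the filter of the 12 libraries only with IEC4. With no filter AOC had 2 higher and 8 lower than IEC2 (all genes 17.99% and 23.14%). Against IEC4 it was 5 and 6 (15.22% and 32.56%), and against IEC12 8 and 2 (15.18% and 23.01%). FOS, a subunit of the AP-1 factor, had 60.89 to 97.14 FPKM at day 2, 17.85 to 24.08 at day 4 and 5.263 to 7.261 at day 12, and fell in both steps (log2 differences -1.80 and -1.55, SE 0.20, adjusted p = 0.000143 and 0.000376). ATF3 had 141.4 to 178.6 FPKM in IEC2, 32.07 to 36.22 at day 4 and 2.935 to 6.054 at day 12, and fell in both steps (-2.18 and -2.66, adjusted p = 5.66e-05 and 2.63e-05). CCN2, a matricellular growth factor, fell by 4.08 from IEC2 to IEC4 (SE 0.49, adjusted p = 0.000222), from 101.7 to 137 FPKM to 2.887, 3.569 and 17.95 FPKM, and AOC had 227.3 to 309.9 FPKM. MYC had at most 0.1306 FPKM in IEC2, 2.402, 9.637 and 17.51 in IEC4 (a difference of 3.07, limma adjusted p = 0.00540 with no filter), at most 0.1605 in IEC12 and 47.2 to 80.76 in AOC. These genes answer to many stimuli, and the growth factors of the medium also differed between the stages, so their values cannot be assigned to PDGF.

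**Figure D5:**
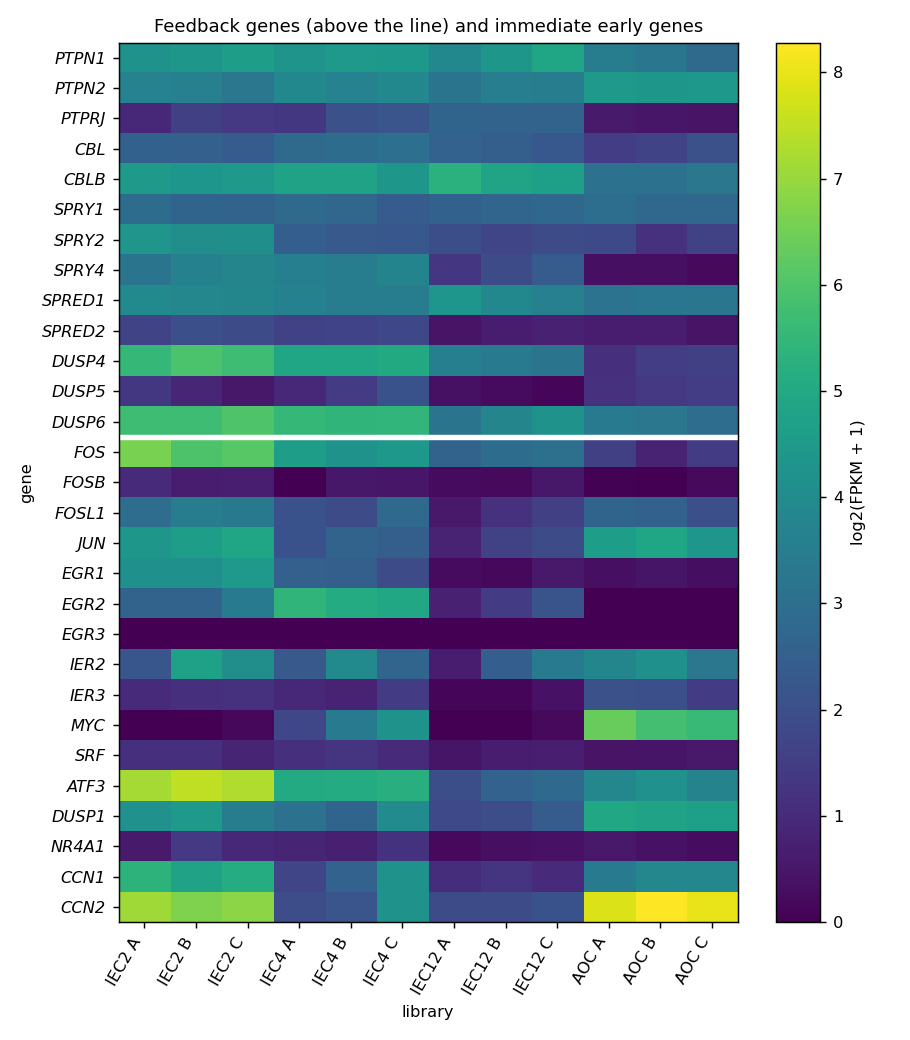
Level as log2(FPKM + 1) (colour) of feedback genes above the white line and immediate early genes below it (y axis) in the 12 libraries (x axis). DUSP6, SPRY4, FOS and ATF3 darken from IEC2 to IEC12, and CCN2 and MYC are brightest in AOC.

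The kinase relatives of the PDGF receptors and their ligands formed a list of 7, all found, of which 3 were tested in the induced libraries and 4 with AOC. Of the 3, 0 rose and 2 fell from IEC2 to IEC4 and 1 rose and 0 fell to IEC12, and 0 were higher and 1 lower in IEC12 than in IEC2. The medians were -1.02, -0.37 and -0.11. Of all genes 24.8% and 12.5%, 17.3% and 26.9%, and 24.2% and 19.3% were higher and lower in these comparisons. AOC had 2 higher and 2 lower than IEC2, 2 and 1 against IEC4 and 2 and 0 against IEC12 (medians 0.098, 0.31 and 0.46), beside 26.7% and 37.1%, 22.1% and 47.0%, and 22.4% and 36.2% of all genes. CSF1 passed the filter only through AOC and was among the 2 higher in each comparison with AOC, so its difference was built into its selection. With no filter all 7 entered. AOC then had 2 higher and 1 lower than IEC2 (all genes 17.99% and 23.14%). Against IEC4 it was 2 and 1 (15.22% and 32.56%), and against IEC12 2 and 0 (15.18% and 23.01%). With 3 or 4 genes tested, nothing is read from these counts. KITLG, stem cell factor, fell by 1.46 (SE 0.25, adjusted p = 0.00161) to 16.72 to 23.54 FPKM in IEC4 and rose by 1.44 (adjusted p = 0.00156) to 45.58 to 86.53 FPKM in IEC12. FLT3LG, the ligand of FLT3, fell by 1.02 from 53.39 to 65.51 FPKM in IEC2 (SE 0.19, adjusted p = 0.00247) to 24.27 to 36.4 FPKM in IEC4. FLT3 and CSF1R, which lies beside PDGFRB at chr2:151102138-151130311, were at or near 0 in all groups, at most 0.005082 and 0.0147 FPKM.

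The genes most like each member were ranked by Pearson's r of log2(FPKM + 1) over the 12 libraries, among named genes tested in the fit of 12. These libraries share their 4 groups, so such an r mainly reflects the order of the group means. For PDGFA they were ANXA5 (r = 0.988), VPS36 (0.988) and the endothelial adhesion molecule ESAM (0.986), which had 61.22 FPKM in AOC and at most 0.349 in the induced groups as means. For PDGFB they were RAPGEF2 (0.959), TGFB2 (0.951) and TGFBI (0.944). TGFB2, a transforming growth factor, had means of 12.01 FPKM in IEC4 and 13.23 in AOC, against 1.645 in IEC2 and 1.114 in IEC12. For PDGFC they were FCSK (0.961), ZMYND8 (0.944) and CCNJL (0.934). PDGFD was closest to YPEL2 (0.994), IFI6 (0.986) and CALD1 (0.985), the actin-binding caldesmon, at means of 2.38 FPKM in IEC2, 23.16 in IEC4, 6.695 in IEC12 and 38.09 in AOC. PDGFRA was closest to RUNX1T1 (0.980), TMEM45A (0.978) and ABCA9 (0.978), each highest in IEC2. PDGFRB was closest to DCP1B (0.973), ULK1 (0.956) and NHSL3 (0.952), each highest in IEC4.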

How the data were processed

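RNA of 12 libraries had been amplified by Smart-Seq2, and libraries were made with a SMARTER mRNA-Seq kit and sequenced on an Illumina instrument. The study names the company Annoroad Gene Technology for the sequencing. The deposited values are 1 FPKM per gene and library. The submitters' processing notes name Bowtie2 2.2.3, TopHat2 2.0.12, Cufflinks 2.2.1 and the build susScr11, and the annotation and settings are not given in the sources used here. Symbols were matched for 13998 of 19681 identifiers, and coordinates came from RefSeq on Sscrofa11.1, the same assembly, for 5 of the 6 members. Near-identical gene copies and antisense transcripts could not be told apart.

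Groups and replicate letters came from the sample titles. limma 3.58.1 (R 4.3.3) was run with trend on log2(FPKM + 1), with the filter of 1 FPKM in 3 libraries. It was tested on simulated data before use. Fragment counts were recovered as the smallest whole numbers in the ratios of the FPKM values (100% of genes tried). They are known up to a common factor and gave relative depths of 0.668 to 1.23. Replicates of a group were distinct libraries. FPKM is shared among all genes of a library, so abundant genes can move others. Smart-Seq2 copies carry no molecular identifiers. Alternatives were a pseudocount of 0.1, no filter, only the groups compared, a replicate block, median-of-ratios and equal-total scaling, a variance not tied to expression, stricter limits, each replicate left out, and, chosen after seeing the data, limma-voom on recovered fragments and the list counts and listed genes under other settings. The members, gene lists and tests were chosen with earlier results of these data known. Named genes were the members, the activation and binding list (1 gene of it is not reported here and was left out of its counts), from each other pathway list the 3 with the highest mean and the 2 with the widest range of group means, the 3 most like each member, and selected markers. Tables and figures were made with Python 3.11.15, pandas 2.3.3 and matplotlib 3.10.9.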

Additional observations from a re-analysis of the deposited data

How the results depend on the processing

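Of 21 tested member comparisons, 15 were called. The 3 of PDGFA, which passed the filter only through AOC, are left out of the next counts. Of the other 12 calls, 7 held in every alternative with the same threshold and 8 with each replicate left out in turn. Among the 7 were PDGFRA for IEC4 and IEC12 against IEC2 and for AOC against IEC2 and IEC12. PDGFRA passed the filter only with its IEC2 libraries, so its differences from IEC2 were partly built into its selection. They were still called with no filter. A pseudocount of 0.1, a variance not tied to expression and limma-voom on recovered fragments kept all 21 on their side of the threshold, and the fit of only the groups compared kept the 18 it could give. No filter lost PDGFB for IEC12 against IEC4 (-1.89, adjusted p = 0.0501). Median-of-ratios scaling lost PDGFC for IEC4 against IEC2 (0.37) and AOC against IEC2 (-0.52) and PDGFRA for AOC against IEC4 (-0.45), and gained PDGFRA for IEC12 against IEC4 (0.65). Equal totals gained PDGFC for IEC12 against IEC2 (-0.63, adjusted p = 0.0207) and turned PDGFB for AOC against IEC4, which was not called, to -0.070.

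At an adjusted p under 0.01 the genes called fell to 2290 for IEC4 against IEC2 (of 3932), 2718 for IEC12 against IEC4 (of 4660) and 2855 for IEC12 against IEC2 (of 4592). The members then not called were PDGFC for IEC4 against IEC2 (0.62), PDGFB for IEC12 against IEC4 (-1.89) and AOC against IEC2 (1.53), PDGFC for AOC against IEC2 (-0.73) and PDGFRA for AOC against IEC4 (-0.56). Under the limits the study set for iPS cells against AOC, 124, 99, 129, 605, 571 and 487 genes were called, for IEC4 against IEC2, IEC12 against IEC4, IEC12 against IEC2 and AOC against IEC2, IEC4 and IEC12. No member was called, since every tested log2 difference was under 3 in size: PDGFA 2.35, 2.44 and 2.82 for AOC against IEC2, IEC4 and IEC12, PDGFB 1.53 and 2.04 for the line against IEC2 and IEC12 and -1.89 for IEC12 against IEC4, PDGFC 0.62, -0.99, -0.73 and -1.35, and PDGFRA -1.74, -1.17, -2.29, -0.56 and -1.12. At its levels, 5.128 FPKM or less, PDGFRA could not reach 3 on this scale, so the limits could not call it.

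With 1 replicate left out, the difference of PDGFB ranged from 0.70 to 1.93 for IEC4 against IEC2, 1.22 to 1.72 for AOC against IEC2 and -0.40 to 0.83 for AOC against IEC4, changing sign in the last. PDGFC ranged from 0.55 to 0.76 for IEC4 against IEC2, -0.98 to -0.54 for AOC against IEC2 and -0.60 to -0.17 for AOC against IEC12, and PDGFRA from -0.74 to -0.45 for AOC against IEC4. The untested difference of PDGFD grew with less damping of low values. With a pseudocount of 0.1 it was 5.51 for IEC4 against IEC2, -2.17 for IEC12 against IEC4, 3.34 for IEC12 against IEC2, 6.84 for the line against IEC2 and 3.50 against IEC12, and with limma-voom 7.19, -2.21, 4.98, 8.55 and 3.57. With median-of-ratios scaling it was 1.69 for AOC against IEC4.

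The replicate letters were not treated as pairs, since in no comparison were all 3 correlations of same-letter deviations over 0.1 (lowest -0.514). For IEC12 against IEC2, 2 were over 0.1 (0.246 and 0.201), so this does not exclude pairing. A replicate block gave 3900 to 7505 calls and changed 1 member call, PDGFB for IEC4 against IEC2 (1.38, adjusted p = 0.0481). Scaling moved the share of calls that were higher. It was 66.5% for IEC4 against IEC2 (47.9% when scaled by the median of ratios), 39.2% for IEC12 against IEC4 (53.0%, and 25.6% with equal totals), 55.7% for IEC12 against IEC2 (36.7% with equal totals), 41.9% for AOC against IEC2 (31.1% with equal totals), and 32.0% and 38.2% for AOC against IEC4 and IEC12 (50.7% and 51.1% with median-of-ratios scaling). Of the activation and binding list, 5 genes were lower in AOC than in IEC4 with equal totals and with limma-voom, against 3 as reported. The causes were not tested. Depth limits PDGFA in IEC12, PDGFD in IEC2, PDGFRA in AOC, and PDGFRB in IEC2, IEC12 and AOC, each on at most 30 fragments a library. Single libraries were also this low, PDGFRA in IEC4 replicate C (19 fragments) and PDGFB in IEC12 replicate A (24 fragments).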

Other observations

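PDGFRL (ENSSSCG00000006988), which encodes a protein that resembles the outer part of the PDGF receptors and has no kinase, was looked up after its values were seen. Its FPKM was 16.17, 17.49 and 13.18 in AOC, 1.868, 0.7961 and 2.861 in IEC2, 0, 0.6029 and 0.09183 in IEC4, and 1.012, 0.7869 and 1.342 in IEC12. All AOC libraries were above all induced libraries, while both kinase receptors were at 0.1004 FPKM or less in AOC. Because the gene was picked on these values, no test is given.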
